A study of Mus musculus with 20 samples.

Results

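The genes described here encode proteins of the cytosolic ribosome, though not all of them. They were taken as every gene whose only symbol in the platform annotation was Rpl or Rps with a number, Rplp0 to Rplp2 or Rpsa, and 49 such genes had a probe set among 18193 genes in all. They came from 105 probe sets, and in each of the 24 genes with more than 1 the brightest over all arrays was used. Of the 49 genes 46 passed the filter on dim signals, among 16054 genes tested: 22 of the large subunit, 20 of the small subunit and 4 paralogues (Rpl22l1, Rpl7l1, Rps27l and Rps4l). For the other 3, Rps16, Rpl3l and Rpl39l, the probe set used lay at background, with means of 3.51, 3.88 and 3.85 log2 units, and got no test. For Rps16 this says nothing of the gene, since a probe set listed with further symbols, not used for it, had a mean of 14.07.

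The RNA came from the left lateral liver lobe of 20 male CD-1 mice, an outbred stock, and each mouse gave 1 Affymetrix array. A group of 5 mice received phenobarbital sodium (PB), a sedative that induces drug-metabolising enzymes in hepatocytes, by mouth at 80 mg/kg/day for 28 days, and another 5 did so for 90 days. For each duration 5 mice received the vehicle alone, 0.5% methylcellulose 15 (CMC). The labels state no age and no genetic change. Tissue was frozen 1 day after the last dose, and the design sets the treatments against each other at each duration and the durations against each other within each treatment.

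A ribosome has a small subunit, which reads the messenger RNA, and a large subunit, which joins amino acids and carries a flexible stalk that recruits translation factors. The proteins of both, most of them made in equal numbers, come from many scattered genes, and their transcripts are among the most abundant of a liver cell. Most of these messengers begin with a C followed by a run of pyrimidines (C or T), the terminal oligopyrimidine tract, through which their translation follows the mTOR kinase. Several members also act outside the ribosome, such as Rpl11, which binds Mdm2, the ligase that degrades p53. Rps6 is the best-known substrate of the S6 kinases.

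The start sites of 10 members are shown. They include some of those whose levels moved together most closely between livers (Rps3, Rps10, Rpl41, Rpl22l1), though not Rps7. Shown as well are the 2 that ran against the rest under all 3 scalings tried (Rpl4, Rps2). The others are members with a clear pyrimidine tract (Rpl35, Rps18, Rps6) and Rpl22, whose vehicle groups did not overlap on the probe set used. Each line gives 50 bases in the direction of transcription, 30 before the annotated start and then 20 from it, from RefSeq on GRCm38.p6. Capitals mark the longest run of at least 5 pyrimidines near the start.
Rps3: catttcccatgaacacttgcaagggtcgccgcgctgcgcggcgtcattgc
Rps10: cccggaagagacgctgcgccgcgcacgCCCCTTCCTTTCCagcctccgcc
Rpl41: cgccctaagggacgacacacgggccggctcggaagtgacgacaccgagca
Rpl22l1: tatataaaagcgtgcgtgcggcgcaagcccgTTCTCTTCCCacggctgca
Rpl35: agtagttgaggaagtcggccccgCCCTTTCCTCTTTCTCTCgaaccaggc
Rps18: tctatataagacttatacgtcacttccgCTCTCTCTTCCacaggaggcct
Rps6: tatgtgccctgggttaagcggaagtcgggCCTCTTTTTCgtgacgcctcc
Rpl22: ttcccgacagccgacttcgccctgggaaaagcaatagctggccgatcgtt
Rpl4: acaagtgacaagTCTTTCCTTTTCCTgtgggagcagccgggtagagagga
Rps2: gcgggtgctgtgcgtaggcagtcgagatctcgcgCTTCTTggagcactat
On the plus strand the windows lay at chr3:28805478-28805527 (Rpl22l1), chr4:152325696-152325745 (Rpl22), chr9:64173357-64173406 (Rpl4) and chr17:24720033-24720082 (Rps2). On the minus strand they lay at chr7:99483690-99483739 (Rps3), chr17:27635225-27635274 (Rps10), chr10:128549149-128549198 (Rpl41), chr2:39005112-39005161 (Rpl35), chr17:33955646-33955695 (Rps18) and chr4:86857348-86857397 (Rps6).

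The promoter table held 43 of the 49 members. It had no entry for Rpl7, Rpl8, Rps4l, Rps14, Rps20 and Rps29. A C at the annotated start with 4 pyrimidines after it was found in 8 of 43 members (18.6%), namely Rpl14, Rpl35, Rpl38, Rplp2, Rps6, Rps10, Rps18 and Rps27, against 3.01% of 27025 genes. A run of at least 8 pyrimidines between 10 bases before and 20 after the start was present in 17 members (39.5%), against 13.0% of genes. The letters CCGGAA, the core of sites for ETS-family factors, occurred on either strand within the 300 bases around the start in 28 members (65.1%), against 16.7% of genes and 26.0% of tested genes. AAGATGGC, the core of YY1 sites, was found in 4 members (9.3%, against 3.19% of genes and 4.4% of tested genes), and TATAAA in 6 (13.95%, against 15.7% of genes and 10.6% of tested genes), both searched on either strand. Each match describes letters at annotated starts, and whether a factor binds there was not tested.

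All 20 arrays held a log2 signal for every member, and hepatocyte markers were detected for 7 of 7 genes measured. A principal component analysis of all tested genes put 55.6% of the variance on 1 axis. PB 28-day replicate 5 (-107.9) and PB 90-day replicate 3 (-65.2) had its lowest scores, followed by CMC 28-day replicate 1 (-39.8) and replicate 3 (-36.4), and PB 90-day replicate 2 (44.2) had the highest. The 2 PB livers with the lowest scores had been singled out for that reason, so their values below are a description without a test.

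Ribosomal protein transcripts differed more between mice of the same group than between the group means, except in the CMC 90-day group. The mean over the 46 members, taken as each gene's log2 intensity minus its mean over the 20 arrays, was 0.08 ± 0.25 (SD, n = 5) in the CMC 28-day livers and 0.06 ± 0.24 in the PB 28-day livers. It was -0.15 ± 0.06 in the CMC 90-day livers and 0.01 ± 0.30 in the PB 90-day livers. The ranges of all 4 groups overlapped. Single livers ranged from -0.35 in PB 90-day replicate 2 to 0.45 in PB 28-day replicate 5, a span of 0.80 log2 units or 1.74-fold. PB 90-day replicate 3 came next to the top (0.41), and CMC 28-day replicates 3 and 1 followed (0.35 and 0.25), so the 4 livers with the lowest component scores had the 4 highest means.

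**Figure D1:**
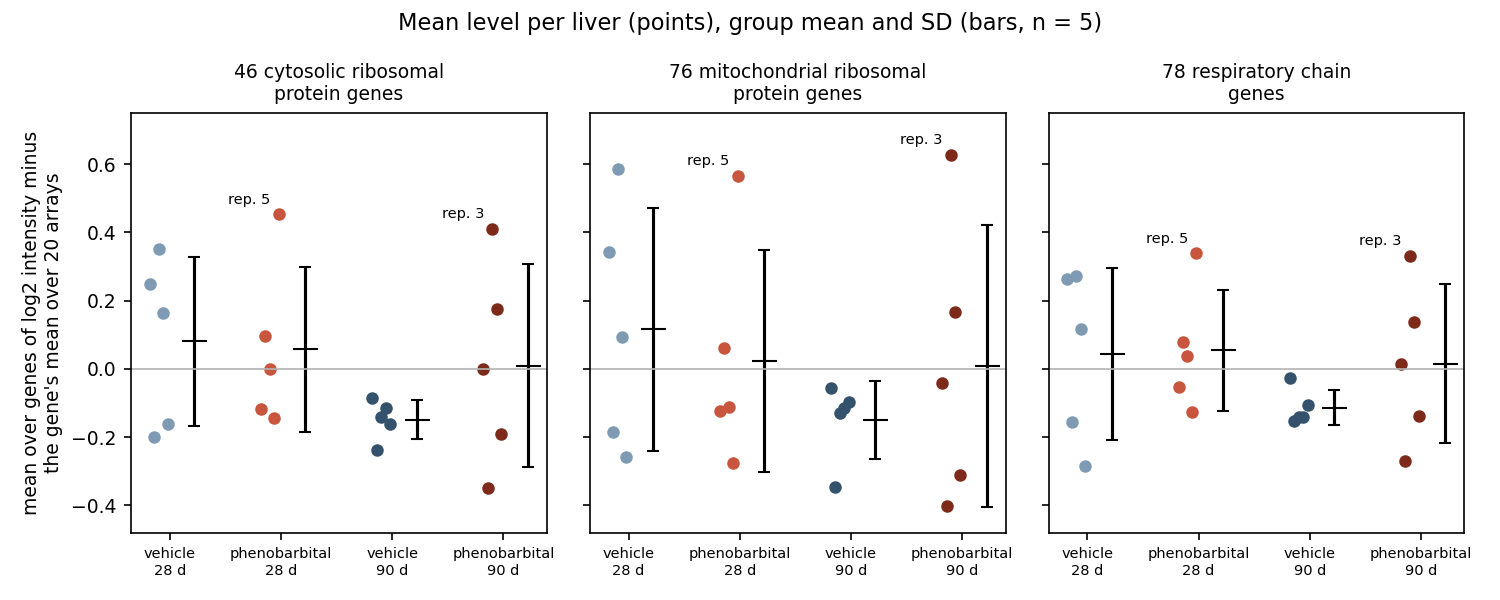
Mean level per liver of the 46 ribosomal protein genes (left), 76 mitochondrial ribosomal protein genes (middle) and 78 respiratory chain genes (right), each point 1 mouse, as log2 intensity minus the gene's mean over 20 arrays on the vertical axis; bars give the group mean and SD (n = 5). In the left panel PB 28-day replicate 5 (0.45) and PB 90-day replicate 3 (0.41) are the highest, and the CMC 90-day livers lie closest together (SD 0.06).

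Rps3, a small-subunit protein at the entry of the messenger channel that also takes part in DNA repair, followed this ordering most closely. In the CMC 28-day livers it measured 13.39, 12.64, 13.66, 13.36 and 12.51 log2 units, and in the PB 28-day livers 12.69, 13.10, 12.97, 12.65 and 13.95. In the CMC 90-day livers it measured 12.66, 12.35, 12.58, 12.71 and 12.52, and in the PB 90-day livers 12.69, 12, 13.67, 13.16 and 12.53. The highest liver was PB 28-day replicate 5 and the lowest PB 90-day replicate 2, a span of 3.85-fold, and apart from PB 90-day replicate 3 the remaining PB livers lay within the range of the vehicle livers.

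Rps19, a small-subunit protein whose loss causes Diamond-Blackfan anaemia, spanned 4.32-fold. Its PB 28-day livers measured 12.24, 12.70, 12.53, 12.20 and 13.52 log2 units, and its PB 90-day livers 12.51, 11.41, 13.18, 12.88 and 12.33. The same livers were again highest and lowest of the 20, and the remaining PB livers lay among the vehicle livers (12.02 to 13.37). Rpl41, the shortest ribosomal protein, and Rps24, another gene of Diamond-Blackfan anaemia, had the same 2 livers at their ends, with spans of 3.41-fold and 3.19-fold.

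How closely each member moved with the rest was measured as Pearson's r over the 20 arrays, after subtraction of the group means, with the mean of the other members outside the paralogues. The median r of the 46 members was 0.885, and 31 of 46 (67.4%) exceeded 0.8, against 9.70% of all genes tested, whose median was 0.207. The scale moved that background: with each array's 75th percentile set equal the median r of all genes was 0.617 and that of the members 0.956, and after cyclic loess they were 0.112 and 0.907. The highest values belonged to Rps3 (0.990), Rps10 (0.986), Rps7 (0.986), Rpl41 (0.983) and Rpl22l1 (0.979). Without the 2 PB livers the median was 0.864 and 26 members (56.5%) exceeded 0.8, against 6.58% of all genes. The points of such an r share arrays, their normalization and any difference between liver samples, so it is given as a description.

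**Figure D2:**
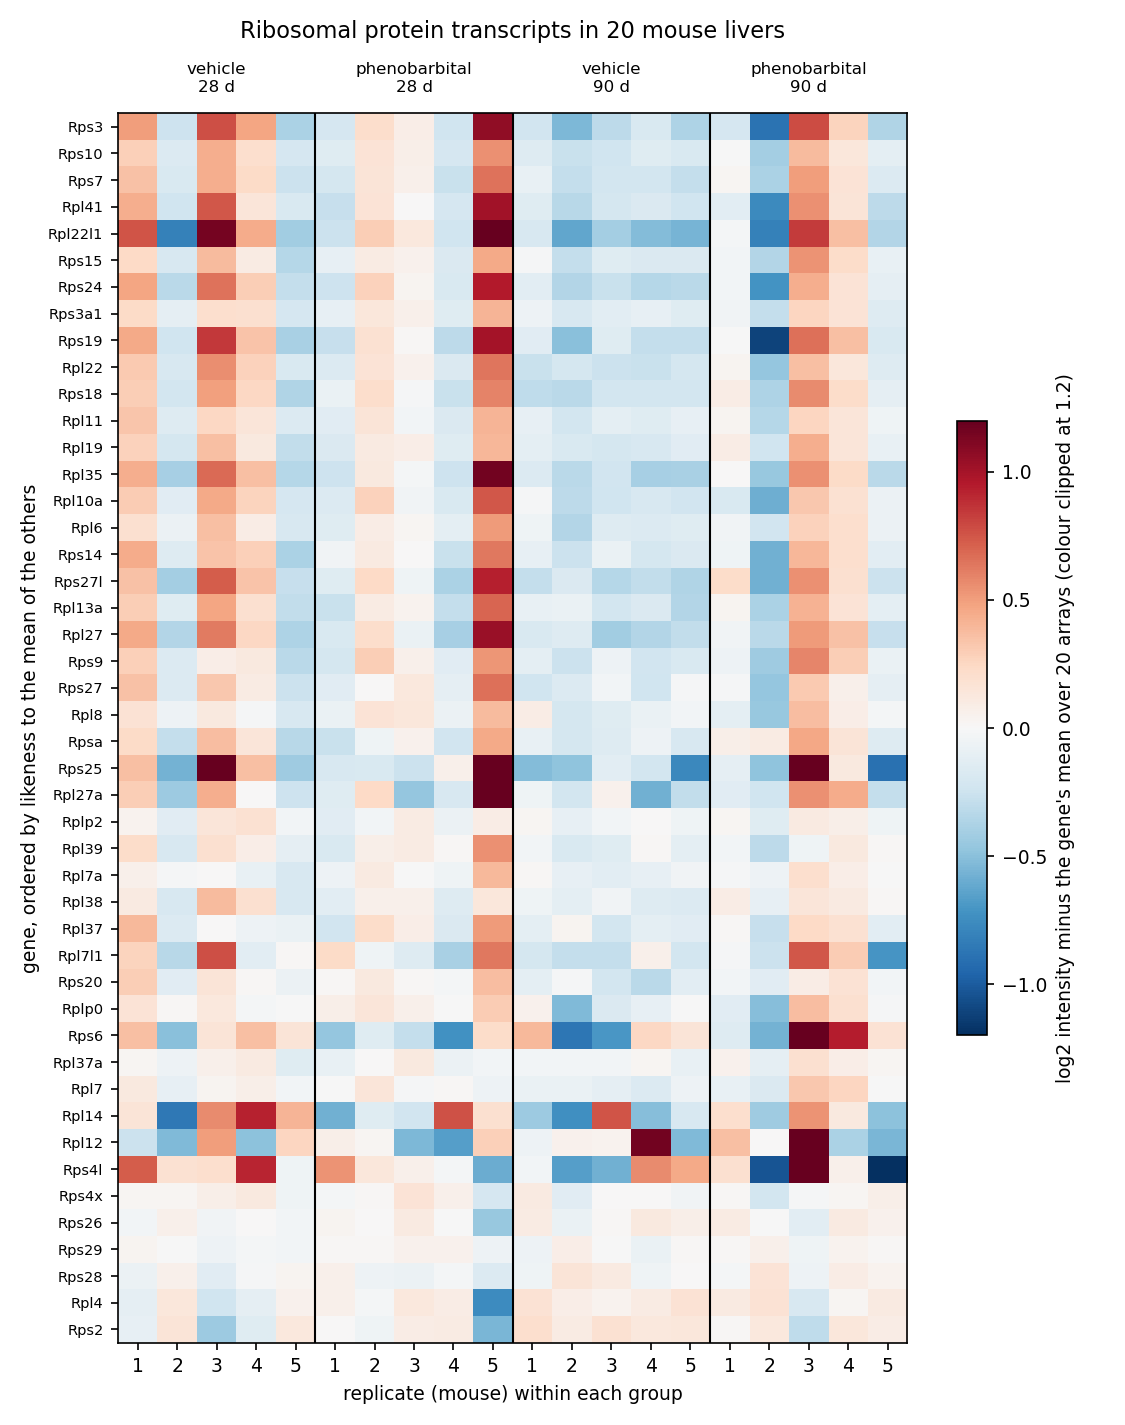
Log2 intensity of each of the 46 ribosomal protein genes (rows) in 20 livers (columns, replicates 1 to 5 of each group), minus the gene's mean over all arrays; red is higher, blue is lower, and the colour is clipped at 1.2. Genes are ordered from the highest r with the other members (Rps3, 0.990) to the lowest (Rps2, -0.837), and most rows are red in PB 28-day replicate 5 and PB 90-day replicate 3.

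The pattern was not particular to the cytosolic ribosome. The 76 mitochondrial ribosomal protein genes, coded separately in the nucleus, had a median r of 0.904 with the same mean, and the 78 respiratory chain genes one of 0.870. The 5 single genes outside the list that followed it most closely were Uqcrh (0.994), Chchd1 (0.993), Ormdl1 (0.993), Dpy30 (0.991) and Psma6 (0.990), as close as any member. The 32 translation factors were split, with a median r of 0.314: 12 exceeded 0.8 (37.5%, against 9.70% of all genes) and 14 were below 0. By contrast, 62 genes of ribosome biogenesis had a median r of -0.053, and 21 genes of mTOR and Myc control one of -0.681. The 8 p53 and nucleolar stress genes had a median r of 0.094, and of 8 listed ribosomal protein genes with other symbols 1 was measured.

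Not every member shared the direction. Rps2, near the messenger entry of the small subunit, and Rpl4, which lines the exit tunnel of the large subunit, ran opposite to the others (r = -0.837 and -0.828). Rpl4 measured 13.28, 13.20, 13.35, 13.31 and 12.47 in the PB 28-day livers and 13.33, 13.39, 13.03, 13.24 and 13.33 in the PB 90-day livers. Rps2 measured 13.34, 13.29, 13.43, 13.44 and 12.79, and 13.35, 13.46, 13.03, 13.47 and 13.43. In both genes the lowest PB liver of each duration was the one in which most members were highest, and each gene rested on a single probe set of its own.

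Rps28, Rps29 and Rps26, small-subunit proteins of which Rps26 sits at the messenger exit, also had a negative r (-0.748, -0.571 and -0.542), but these values depended on the scale. With each array's 75th percentile set equal they became 0.549, 0.821 and 0.366, and Rpl4 (-0.494) and Rps2 (-0.355) were the members that stayed negative. After cyclic loess these 5 were negative again, from -0.723 for Rps28 to -0.967 for Rpl4, and Rps4x joined them (-0.435). Without the 2 PB livers and on the deposited scale, Rps26 turned to 0.158, while Rpl4 (-0.800), Rps2 (-0.667), Rps28 (-0.654) and Rps29 (-0.293) kept their sign.

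In PB 28-day replicate 5, 37 of 46 members were higher than the mean of the other 4 livers of the group, with a median difference of 0.55 log2 units against 0.06 over all genes. Of all 46 members, 35 lay above each of the other 4 livers and 8 lay below each of them. This liver differed widely from its group in general: 42.2% of all genes lay above the other 4 and 36.9% below. The largest differences were those of Rps25 (1.81), Rpl27a (1.41), Rpl22l1 (1.26), Rpl35 (1.26) and Rpl27 (1.14). The lowest were those of Rpl4 (-0.81), Rps4l (-0.78), Rps2 (-0.59) and Rps26 (-0.49). Rps25 and Rpl27a rested on dim probe sets (means of 7.05 and 9.51). Brighter ones that list them beside other genes gave 0.89 and 0.54. Against all 19 other livers, 26 members were highest in this one, where 24.6% of all genes were.

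Rps25, which is needed for initiation at internal ribosome entry sites, had the largest difference in PB 28-day replicate 5, on a dim probe set (mean 7.05). A brighter one that lists it (mean 13.00) gave smaller differences, as given below. On the probe set used, Rps25 measured 6.86, 6.87, 6.79, 7.11 and 8.72 in the PB 28-day livers, and 6.94, 6.57, 8.26, 7.17 and 6.15 in the PB 90-day livers. Replicate 5 at 28 days and replicate 3 at 90 days stood above the other PB livers, and CMC 28-day replicate 3 (8.50) lay between these 2.

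In PB 90-day replicate 3, 41 of 46 members were higher than the mean of the other 4 livers, with a median of 0.49 log2 units against 0.09 over all genes. There 38 members lay above each of the other 4 (37.3% of all genes) and 5 below (27.6%), and 10 members were the highest of all 20 livers, where 11.8% of all genes were. Rps4l was higher by 2.0 log2 units, Rps25 by 1.55, Rpl12 by 1.36, Rps6 by 1.15 and Rps3 by 1.08. Of these, all but Rps3 had a mean under 12 on the probe set used. The 2 brighter ones that list Rpl12 beside other genes (means of 12.85 and 12.03) gave 0.54 and 0.71 in this liver. The brightest that list Rps25 and Rps6 gave 0.62 and 0.26. Rps2 (-0.40), Rpl4 (-0.30), Rps26 (-0.18), Rps28 (-0.13) and Rps29 (-0.08) were the 5 below. With the 75th percentiles set equal the all-gene median moved to 0.45 in the 28-day liver and 0.33 in the 90-day liver and the member medians to 0.94 and 0.73, and 42 and 44 members were then positive. Those that turned positive were Rps28, Rps29, Rpl7, Rpl37a and Rps4x in the 28-day liver and Rps28, Rps29 and Rps26 in the 90-day liver. After cyclic loess 39 members were higher in the 28-day liver (median 0.67) and 36 in the 90-day liver (median 0.32).

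**Figure D3:**
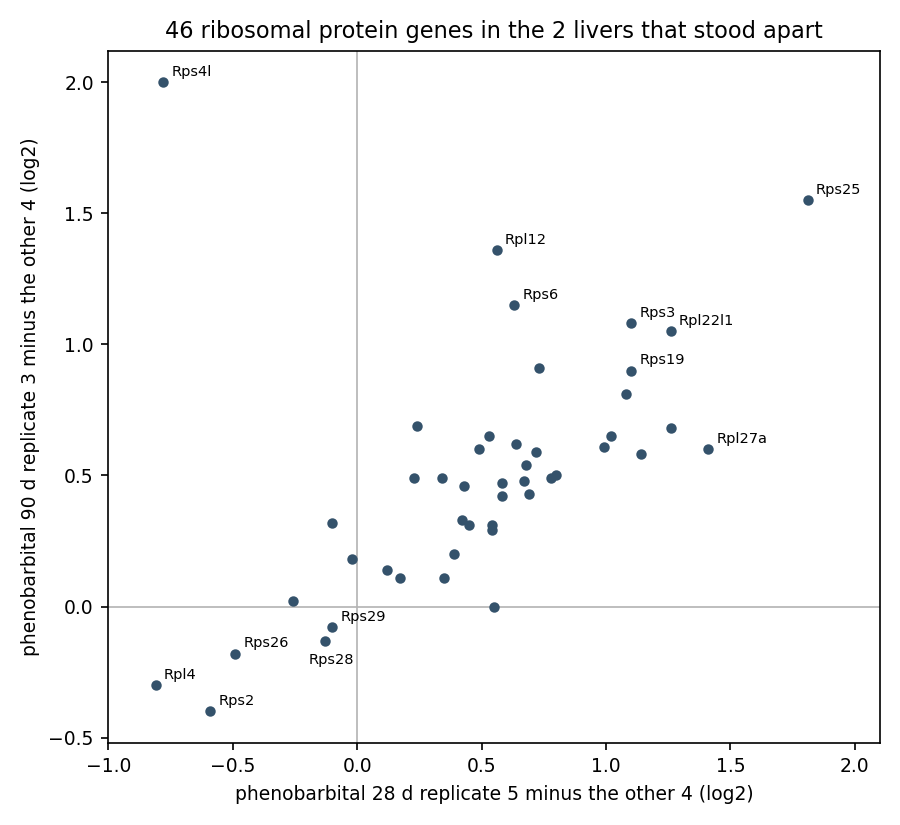
Difference of each of the 46 members from the mean of the other 4 livers of the group, in log2 units, in PB 28-day replicate 5 (horizontal) and PB 90-day replicate 3 (vertical). Most points lie in the upper right quadrant, Rpl4, Rps2, Rps26, Rps28 and Rps29 lie below 0 in both, and Rps4l lies at -0.78 and 2.0.

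The subunits had similar values. In PB 28-day replicate 5 the median difference was 0.49 for the 22 large-subunit genes and 0.58 for the 20 small-subunit genes, and in PB 90-day replicate 3 it was 0.47 and 0.51. Mitochondrial ribosomal proteins had larger medians (0.84 and 0.82), and respiratory chain genes had 0.49 and 0.39, while translation factors had 0.01 and 0.09. Genes of ribosome biogenesis differed in sign between the livers (-0.23 and 0.30), and those of mTOR and Myc control were lower in both (-0.69 and -0.36).

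Marker levels of some liver cell types also stood apart in these livers. Of 6 Kupffer cell markers 5 lay above the other 4 livers of the group in each, and their summed level in PB 28-day replicate 5 (12.09 log2 units) was the highest of all 20. Those sums ran from 10.57 to 11.94 in the CMC 28-day group, 11.12 to 12.09 in the PB 28-day group, 10.19 to 11.44 in the CMC 90-day group and 9.94 to 11.42 in the PB 90-day group. All 7 hepatocyte markers were below the other 4 livers in PB 28-day replicate 5 and 6 of 7 in PB 90-day replicate 3, with sums of 16.72 and 16.96. The hepatocyte sums of the vehicle livers ran from 16.98 to 17.22 at 28 days and from 17.18 to 17.22 at 90 days. The sums of 6 lymphocyte markers (8.20) and 5 neutrophil markers (8.21) were also highest in PB 28-day replicate 5, and that of 3 erythroid markers (9.68) was the lowest of the 20 there. The sums for sinusoidal endothelium (11.30 and 11.25), stellate cells (12.40 and 12.45) and cholangiocytes (6.97 and 7.06) in the 28-day and the 90-day liver lay within the ranges of the CMC 28-day livers. Over the 20 livers the median r with the members' mean was -0.79 for the hepatocyte markers (7 of 7 below 0). For the Kupffer markers it was 0.784 (0 of 6 below 0). Without the 2 PB livers these medians were -0.595 and 0.697. The part of the cell type markers in the ribosomal protein values was not tested. In whole liver a change in the share of a cell type and a change of RNA within cells cannot be told apart.

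The opposite case was PB 90-day replicate 2, where 4 of 46 members were higher than the mean of the other 4 livers (median -0.48). Of all 16054 genes 6683 were (median -0.09). There 25 members were the lowest of all 20 livers, as were 12.9% of all genes. Rps19 (11.41), Rps3 (12) and Rpl41 (12.85) had their lowest values there. CMC 28-day replicate 3 resembled the high PB livers, with 39 of 46 members above the mean of its group and a median of 0.38. Of all 16054 genes 7661 lay above it there, with a median of -0.02.

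After 28 days of phenobarbital no ribosomal protein transcript changed by limma with Benjamini-Hochberg adjustment over all genes. Of 46 members 0 were called at an adjusted p under 0.05, where 0.0498% of all genes were, and 0 had an unadjusted p under 0.05 (2.86% of all genes). The 5 PB and 5 CMC livers overlapped in all 46, and they stayed apart in 0.542% of all genes. The median change was -0.012 log2 units, against -0.0016 over all genes, with 18 positive and 28 negative changes and a median SE of 0.16. The adjusted p of each member was 0.99986.

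The lowest 28-day changes were those of Rps6 (-0.39 ± 0.32, SE) and Rps4l (-0.37 ± 0.45), and the highest those of Rpl27a (0.13 ± 0.27) and Rpl7a (0.12 ± 0.09). Each of these 4 was smaller than the gene's own SD between mice. Of the 4, Rps6, Rps4l and Rpl27a rested on dim probe sets (means of 8.09, 7.7 and 9.51). The stalk proteins Rplp0 and Rplp2 differed by 0.06 ± 0.14 and -0.05 ± 0.08, and Rpsa, which also serves as a laminin receptor, by -0.03 ± 0.15. The sign of the median rested on single livers: it was -0.13 without PB replicate 5 and 0.07 without CMC replicate 3, and with the 75th percentiles set equal it was 0.04 and 38 of 46 changes were positive.

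After 90 days of phenobarbital most members lay higher than in vehicle livers, by small differences of which none passed the test. Of 46 members 41 had a positive change and 5 a negative one, with a median of 0.17 log2 units against 0.03 over all genes. Limma called 0 of 46 (0.143% of all genes), with adjusted p from 0.816 upward, 0 had an unadjusted p under 0.05 (4.53%), and the groups overlapped in all 46 (they stayed apart in 1.07% of all genes). Large-subunit genes had a median of 0.14 (21 of 22 positive), small-subunit genes 0.20 (17 of 20) and paralogues 0.26 (3 of 4). Without PB 90-day replicate 3 the median of all members was 0.07 and without PB 90-day replicate 2 it was 0.27. Of the hepatocyte markers 6 of 7 were negative (median -0.14) and of the Kupffer markers 5 of 6 (median -0.20), with 0 called. At 28 days the hepatocyte markers were negative in 7 of 7 (median -0.07) and the Kupffer markers positive in 5 of 6 (median 0.19).

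Rps6 had the largest 90-day difference, on a dim probe set (mean 8.09). Brighter probe sets list Rps6 beside other genes (the brightest with a mean of 13.89), and no group change is given for them. On the probe set used, Rps6 measured 8.48, 7.22, 7.39, 8.34 and 8.24 in CMC livers and 7.93, 7.52, 9.33, 9.03 and 8.26 in PB livers. The change was 0.48 ± 0.32 (unadjusted p = 0.148 by limma). Replicates 3 and 4 of the PB group lay above all vehicle livers, and the other 3 lay among them. Rpl22l1 differed by 0.46 ± 0.35, and Rps18, with the smallest unadjusted p (0.0789 by limma), by 0.34 ± 0.18. At the other end Rps4l differed by -0.32 ± 0.45 and Rps2 by -0.14 ± 0.13.

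Members with known roles outside the ribosome or in disease had changes of similar size at 90 days. Rpl11 differed by 0.15 ± 0.13, Rpl13a, a silencer of inflammatory messengers once released from the ribosome, by 0.21 ± 0.18, and Rps14, lost in the 5q- form of myelodysplasia, by 0.13 ± 0.18. Rps3 and Rps19 differed by 0.25 ± 0.28 and 0.22 ± 0.29, and Rpsa by 0.26 ± 0.15. None of these was called.

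The other gene lists of translation gave 0 called members at either duration in limma. Of 76 mitochondrial ribosomal protein genes 17 were positive at 28 days (median -0.10) and 63 at 90 days (0.13). Of 62 biogenesis genes 16 and 18 were positive, with medians of -0.11 and -0.12, and of 32 translation factors 10 and 17 (-0.05 and 0.01). Respiratory chain genes had medians of 0.02 and 0.15 (48 and 63 of 78 positive), and mTOR and Myc genes -0.10 and -0.17 (7 and 8 of 21). Of the 8 p53 and nucleolar stress genes 3 and 4 were positive.

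**Figure D4:**
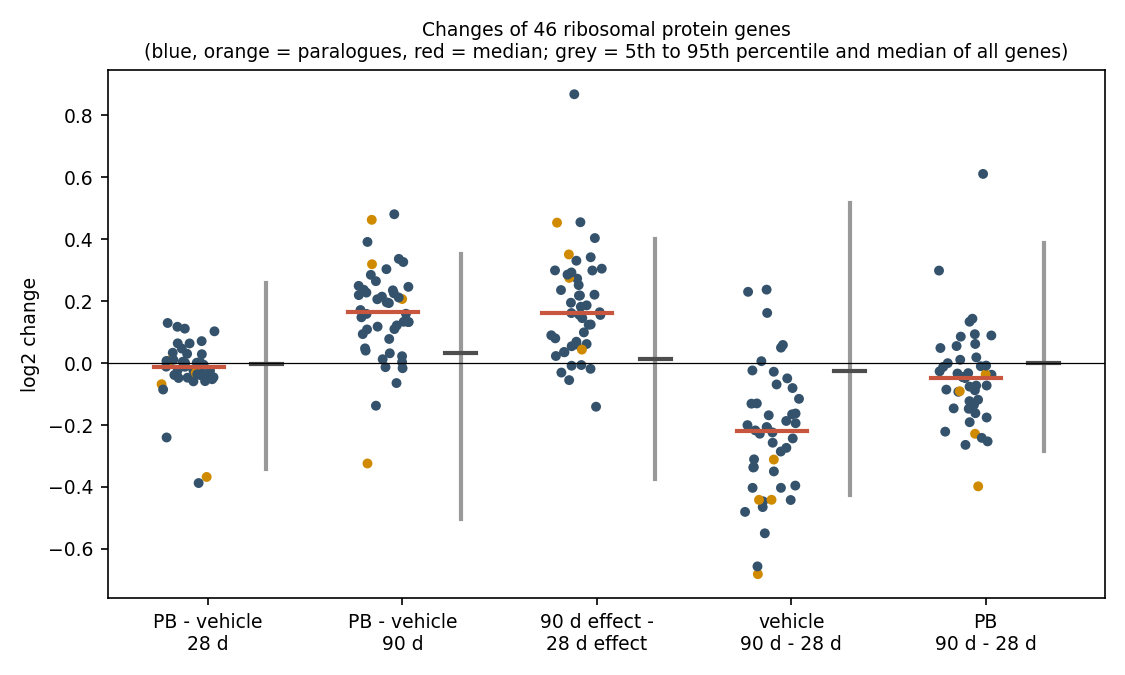
Log2 change of each of the 46 members (points, orange for paralogues) in 5 comparisons, with the members' median in red; the grey line beside each runs from the 5th to the 95th percentile of all tested genes, with their median as a dark bar. The members' medians are -0.012, 0.17, 0.16, -0.22 and -0.05 from left to right, and most points lie within the grey range.

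The comparisons that follow use the same livers as the 2 above, so their values are not independent of those. The difference between the 90-day and the 28-day effect of phenobarbital was positive in 40 of 46 members, with a median of 0.16 log2 units against 0.01 over all genes. Limma called 0 members (0.0% of all genes), and 0 had an unadjusted p under 0.05 (1.38%). Rps6 had the largest difference, 0.87 ± 0.45 (unadjusted p = 0.0692 by limma), followed by Rpl14 (0.45 ± 0.46) and Rpl22l1 (0.45 ± 0.50). Here too Rps6 and Rpl14 rested on dim probe sets (means of 8.09 and 5.88). The lowest were Rps2 (-0.14 ± 0.18) and Rpl8 (-0.06 ± 0.19). The median was 0.29 without PB 28-day replicate 5 and 0.07 without PB 90-day replicate 3.

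Between the vehicle groups the members lay lower after 90 than after 28 days, in 40 of 46 genes and by a median of -0.22 log2 units, against -0.03 over all genes. Limma called 0 members (0.0% of all genes), with adjusted p from 0.636 upward. At an unadjusted p under 0.05 Rpl22 (0.0311) and Rps20 (0.0485) were lower, 2 of 46, where 5.69% of all genes passed in either direction. With the 75th percentiles set equal the median was -0.34 and that of all genes -0.15, and the same scaling gave 0.26 and 0.13 for phenobarbital at 90 days. The length of dosing and the age of the mice at sampling, which the labels do not give, cannot be told apart here.

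Rpl22, an RNA-binding protein of the large subunit that holds down its own paralogue, was the member whose vehicle groups stayed apart, on its brightest probe set. That measured 13.60, 13.09, 13.84, 13.56 and 13.10 in the CMC 28-day livers and 13.02, 13.07, 13.03, 13.02 and 13.07 in the CMC 90-day livers, a difference of -0.40 ± 0.17. All 5 of the 90-day livers lay below all 5 of the 28-day livers, by as little as the distance from 13.07 to 13.09. It was the only 1 of 46 members without overlap, where 2.33% of all genes had none. The other probe sets of Rpl22 did not repeat this: the second overlapped (11.02 to 12.01 at 28 days, 10.95 to 11.17 at 90 days), and the dimmest ran the other way without overlap (8.15 to 8.70, then 8.76 to 9.28). The SD of the brightest probe set was 0.33 at 28 days and 0.025 at 90 days.

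Rpl22l1, that paralogue, measured 12.62, 11.06, 13.02, 12.31 and 11.45 in the CMC 28-day livers and 11.68, 11.24, 11.46, 11.35 and 11.31 in the CMC 90-day livers. Its difference of -0.68 ± 0.35 was the lowest of the members, and the groups overlapped, since replicate 5 at 28 days lay within the 90-day range and replicate 2 below it. Rps25 differed by -0.66 ± 0.41, Rps3 by -0.55 ± 0.28, Rps19 by -0.48 ± 0.29 and the p53-induced paralogue Rps27l by -0.44 ± 0.24. Rpl12 (0.24 ± 0.32), at the base of the stalk, and Rps2 (0.23 ± 0.13) were the most positive. Of these genes, Rps25 and Rpl12 rested on dim probe sets (means of 7.05 and 6.07). The 6 Kupffer cell markers also lay lower after 90 days (median -0.46, 0 called), as did 4 of 5 neutrophil markers (median -0.28), and their part in these values was not tested.

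The CMC 90-day livers were the most alike of all groups. In 37 of 46 members (80.4%) this group had the smallest SD of the 4, and the same held for 49.0% of all genes. The median SD of the members was 0.09 there, against 0.29 in the CMC 28-day, 0.32 in the PB 28-day and 0.31 in the PB 90-day livers. Over all genes the medians were 0.19, 0.25, 0.29 and 0.29 in the same order.

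Between the PB groups the members differed little on balance, with 12 positive and 34 negative changes from 28 to 90 days and a median of -0.05 log2 units. Limma called 0 of 46 (0.00623% of all genes), 0 had an unadjusted p under 0.05 (4.23%) and the groups overlapped in all 46 (they stayed apart in 0.635% of all genes). Rps6 was the highest at 0.61 ± 0.32 (unadjusted p = 0.0705 by limma), followed by Rpl12 (0.30 ± 0.32). Both rested on dim probe sets (means of 8.09 and 6.07). Rps4l (-0.40 ± 0.45) and Rps3 (-0.26 ± 0.28) were the lowest. The median turned to 0.04 without PB 28-day replicate 5 and to 0.02 without PB 90-day replicate 2, and it was -0.15 without PB 90-day replicate 3. The Kupffer markers were lower after 90 days in 6 of 6 (median -0.90, 0 called, 4 with an unadjusted p under 0.05 by limma), and their part in the member values was not tested.

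The members varied between mice to very different degrees. The within-group SD had a median of 0.26 log2 units over the 46 members and 0.27 over all genes, and it ran from 0.048 in Rps29 to 0.78 in Rps4l. Rps29, Rps28 and Rpl37a, all proteins of small size, had the smallest SDs, with spans over the 20 livers of 1.12-fold, 1.24-fold and 1.27-fold. They also had bright probe sets (means of 14.21, 13.82 and 13.68), and how far the signal can still rise at that level was not tested. Rps4l (11.4-fold), Rps25 (5.91-fold) and Rpl22l1 (4.15-fold) were the most variable. The 35 members with a mean of 12 or more had a median SD of 0.23, and the 11 dimmer ones 0.54. Intensities of different probe sets do not compare amounts of transcript.

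**Figure D5:**
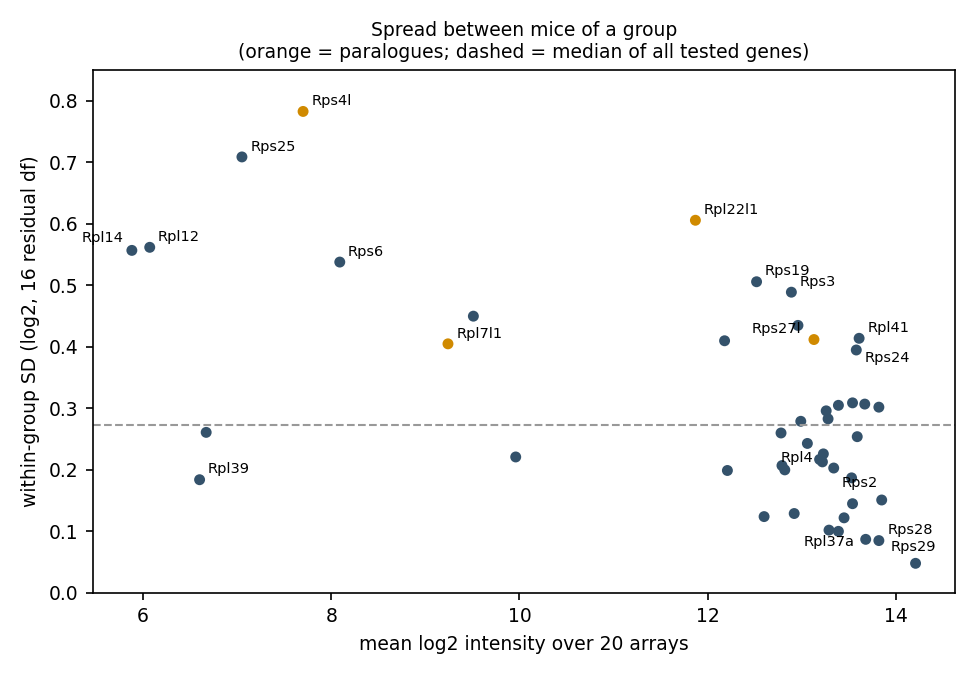
Within-group SD (vertical, log2 units, 16 residual degrees of freedom) of each of the 46 members against its mean log2 intensity over 20 arrays (horizontal), with paralogues in orange and the median of all genes as a dashed line at 0.27. Rps29 has the smallest SD (0.048) and Rps4l the largest (0.78), and the 11 members below 12 have a median of 0.54.

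Several familiar members did not rest on the brightest probe set that lists them. For 10 of the 49 genes, Rpl12, Rpl14, Rpl27a, Rpl37, Rpl39, Rps2, Rps6, Rps16, Rps25 and Rps27, the array had a brighter probe set that was listed with other genes as well and was therefore not used. Of these 10, all but Rps2 had a mean under 12 on the probe set used. The values of Rps25 above come from such a dim probe set, and the brighter one that lists it (mean 13.00) gave 0.89 and 0.62 log2 units in PB 28-day replicate 5 and PB 90-day replicate 3, where the probe set used gave 1.81 and 1.55. The brightest of those that list Rps6 (mean 13.89) gave 0.37 and 0.26, where the probe set used gave 0.63 and 1.15. Another that lists Rps6 (mean 10.24) gave 1.41 in the 28-day liver. In that liver brighter probe sets also gave more for Rps27 (1.29, where the one used gave 0.69) and Rpl12 (1.02 and 0.94, against 0.56). The same held for Rpl14 (0.66 to 0.83, against 0.24). The brightest gave less for Rpl37 (-0.14, against 0.54) and Rpl39 (0.13, against 0.55). The probe sets with several symbols, 106 above the filter, had a median r of 0.898 with the members, 70 of 106 exceeded 0.8, and 13 of 106 were below 0. Rplp1, Rps27a, Rpl3, Rpl5, Rpl10 and Rpl10l were not analysed here. Symbols that fit the rule but occurred only on probe sets with several symbols numbered 28. They are not among the 49 genes, so the medians above do not cover the whole ribosome.

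Second probe sets mostly repeated the first. In 20 of 21 members whose second probe set passed the filter on dim signals the difference of PB 28-day replicate 5 from its group had the same sign in both, and so it did in 21 of 21 for PB 90-day replicate 3. The 4 probe sets of Rpl13a gave 0.80, 0.97, 1.63 and 2.15 log2 units in PB 28-day replicate 5, in order of falling brightness (means of 13.82, 12.95, 10.80 and 10.30). All were positive, and the brightest gave the smallest difference. The second probe set of Rps3 gave 1.64 where the first gave 1.10, and its dimmest, at a mean of 5.86, gave -0.26.

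Some probe sets disagreed. Those of Rpl22 gave 0.67, 0.88 and -1.19 in PB 28-day replicate 5, so that its dimmest one ran against the other 2. The 2 brightest probe sets were least alike in Rps4x (r = 0.188 over 20 arrays), Rpsa (0.373) and Rpl27a (0.468), whose second probe sets lay near background with means of 4.89, 3.82 and 4.13. Rpl4 had no other probe set. Both probe sets that list Rps2 beside further symbols ran with it, against the members (r = -0.797 and -0.867), and differed by -0.81 and -0.77 in PB 28-day replicate 5 and by -0.34 and -0.43 in PB 90-day replicate 3.

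The 4 tested paralogues had a median within-group SD of 0.51, above that of all members. Rps27l followed the others (r = 0.952) and measured 13.28 ± 0.47, 13.24 ± 0.50, 12.83 ± 0.08 and 13.15 ± 0.44 (SD, n = 5) in the CMC 28-day, PB 28-day, CMC 90-day and PB 90-day livers. Rpl22l1 did so too (0.979), with 12.09 ± 0.82, 12.10 ± 0.61, 11.41 ± 0.17 and 11.87 ± 0.64. Rpl7l1 was less close (0.791), and its groups lay between 9.05 ± 0.14 and 9.37 ± 0.43. Rps4l (0.379) measured 7.89, 6.66, 8.93, 7.76 and 5.41 in the PB 90-day livers, the lowest and the highest of all 20 within a single group. No paralogue was called in any comparison, and the muscle gene Rpl3l and the testis gene Rpl39l stayed at background in all groups. Rpl39, the broadly expressed relative of the latter, differed by 0.07 ± 0.13 at 28 days and 0.04 ± 0.13 at 90 days.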

How the data were processed

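Values were log2 intensities that the authors made with RMA, per the submitters' processing notes, and deposited in 1 table. The RMA version and genome build are not given in the sources used here. RMA equalises array distributions and compresses very bright and very dim signals. Of 45037 probe sets 34945 had 1 symbol, and the brightest stood for each gene. A gene was tested when it exceeded the array's 25th percentile (3.96 to 4.26) on at least 5 arrays. The precision is limited by how many arrays there are.

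A model with 1 mean per group (16 residual degrees of freedom) was fitted over all 20 arrays and 16054 genes with limma 3.58.1 under R 4.3.3 (lmFit and eBayes with an intensity trend), with two-sided p-values adjusted by Benjamini-Hochberg over all genes and a gene called under 0.05. It was also run on simulated data, and the outcome is not given here. Mice were separate animals. The labels state no pairing by replicate number. Correlations of deviations between mice of the same number ran from -0.69 to 0.50. Such a range cannot show whether equal numbers shared any handling. Promoters came from RefSeq on GRCm38.p6, and all 49 symbols were found there by Entrez identifier. Figures used Python 3.11.15 and matplotlib 3.10.9.

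The members and lists were chosen with earlier results of these data known. Named were a fixed set of members, in each comparison the 2 largest changes each way, the 3 most and 3 least variable members, the 3 least alike probe-set pairs, the 3 members least like the rest and the 5 most alike other genes. Rps26, Rps20, Rps18, Rps10, Rps7, Rpl41, Rps24, Rpl35 and Rpl27 were singled out after their values were seen. So were Rpl7 and Rpl37a under another scaling, and the probe sets of Rpl12, Rpl13a, Rpl22, Rpl27a, Rps2, Rps6 and Rps25. Alternatives were other filters, probe-set rules, scalings, priors, array weights, fewer arrays and a replicate block.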

Additional observations from a re-analysis of the deposited data

Results flagged for a closer look

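For the named members and the mean over all members, 112 groups of 5 livers were looked at. Of these, 7 held a liver far from the other 4, meaning that its gap to the nearest one exceeded 0.71 of the group's range. For a gene not picked from the data, chance flags about 1 in 20 such groups. Part of the named members were picked from these data and many vary together, so that rate does not apply as it stands. In PB 28-day replicate 5, Rpl4 was low (12.47, the others 13.20 to 13.35), Rps2 was low (12.79, the others 13.29 to 13.44) and Rps25 was high (8.72, the others 6.79 to 7.11). In PB 90-day replicate 3, Rps2 was low (13.03, the others 13.35 to 13.47). Rps4x was low in PB 90-day replicate 2 (13.07, the others 13.28 to 13.36), Rps6 was low in CMC 28-day replicate 2 (7.59, the others 8.24 to 8.45) and Rpl7l1 was high in CMC 90-day replicate 4 (9.31, the others 8.96 to 9.03).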

How the results depend on the processing

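No member was called in any of the 5 comparisons under any alternative, and the smallest adjusted p was 0.279, between the vehicle groups without PB 28-day replicate 5 and PB 90-day replicate 3. With the replicate number as a block, 0 members were called in each comparison, and the block changed no call. The mean of all members in PB 28-day replicate 5 minus its group was 0.49 log2 units, and it became 0.88 with the 75th percentiles set equal and 0.64 after cyclic loess. In PB 90-day replicate 3 it was 0.50 and became 0.74 with the 75th percentiles set equal. The cause was not tested. Without single arrays the median change ran from -0.13 to 0.07 for phenobarbital at 28 days, 0.07 to 0.27 at 90 days, 0.07 to 0.29 for their difference, -0.29 to -0.16 between the vehicle groups and -0.15 to 0.04 between the PB groups. The median within-group SD ran from 0.23 to 0.27 without single arrays. With 5 mice per group, the median SE of a change between groups was 0.16 log2 units, and that of the difference between durations was 0.23.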
